A study of Mus musculus with 9 samples.

Results

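Lens crystallins were described in the retinal pools of this light exposure study, array by array. The group held 10 genes, chosen by name: Cryaa, Cryab, Cryba1, Cryba2, Cryba4, Crybb1, Crybb2, Crybb3, Crygs and Grifin. They were read through all probe sets annotated to 1 of these symbols alone, 12 of the 45101 probe sets measured. Cryab had 3 probe sets and the other genes 1 each, and the main probe set of a gene was the one with the highest mean over the 9 arrays. The 10 genes stood among 18193 genes with such a probe set.

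All arrays came from female BALB/c mice aged 10 weeks, an albino strain whose name the labels spell Babl/c. Each of the 3 groups held 3 arrays, and each array was a pool of right-eye retinas from 3 mice. The control mice were kept in a dark environment, with no illuminance stated, and the others under white light-emitting diodes (LEDs) of 2954K, a warm white, or 7378K, a cold white, at 1000 lx. The exposure ran for 14 days, and the labels give every group 12 h on and 12 h off. The tissue was the neurosensory layer of the retina, taken off the pigment epithelium, and the labels do not mention lens. Each array is called by its group and its number, as in control 3.

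Crystallins are the abundant water-soluble proteins of lens fibre cells, which lose their organelles and keep these proteins for life. The α-crystallins Cryaa and Cryab belong to the small heat shock proteins and act as chaperones, the β- and γ-crystallins form a separate family of structural proteins, and Grifin is a lens galectin. Cryab is also made in glia, heart and muscle, and several crystallins have been described in retinal neurons and glia under stress.

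Cryab alone gave a high signal on every array, whereas the other 9 genes were highest on the third array of each group and read 7.69 or less on the first and second arrays. Control 3 held the highest value of all 10 genes, 2954K 3 the next and 7378K 3 the third, each above all 6 first and second arrays. In the comparisons between light groups, 0 of the 9 crystallins tested passed. Values are log2 signals, on which a difference of 1 is a 2-fold change, and they are not compared between probe sets, whose brightness also depends on the probe sequence. A gene entered the tests when its mean over the 9 arrays was at or above 5.91, the 40th percentile of all probe set means. This filter value is used below as a line between dim and brighter values and is not a detection call.

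Cryaa, the α-crystallin that is largely restricted to the lens, had log2 signals of 5.33, 3.04 and 14.66 in controls 1, 2 and 3. Its values were 3.45, 2.33 and 11.76 under 2954K light, and the 7378K arrays read 1.92, 2.33 and 9.80. All 6 first and second arrays lay below the filter value, and the third arrays stood at least 4.47 above them. The groups overlapped, since each held dim arrays and 1 bright one.

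Cryab, the α-crystallin found in many tissues, measured 10.47, 10.25 and 14.80 in the controls on its main probe set. Under 2954K light its values were 11.66, 10.81 and 12.66, and under 7378K light 11.54, 11.24 and 11.97. All 9 arrays lay far above the filter value, and the third array was again the highest of each group. Its second probe set gave the same picture, at 9.53, 9.35 and 14.58 in the controls. The 2954K arrays read 9.70, 9.92 and 11.84 there, and the 7378K arrays 10.16, 10.04 and 10.60. The third probe set of Cryab was dim, between 3.30 and 5.64 on the 9 arrays, and lay below the filter.

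Cryba1, which encodes the βA3- and βA1-crystallins, read 6.64, 5.87 and 14.69 in the controls. It read 5.62, 4.94 and 11.97 under 2954K light and 5.06, 2.55 and 9.83 under 7378K light. Apart from the third arrays, only control 1 reached the filter value. Cryba2, another acidic β-crystallin, read 3.79, 5.55 and 13.96 in the controls, 1.15, 4.69 and 10.86 under 2954K light and 5.49, 6.28 and 8.61 under 7378K light. Its only other array past the filter value was 7378K 2. Cryba4 read 5.45, 1.75 and 12.86 in the controls, 4.58, 3.43 and 10.41 under 2954K light and 6.20, 4.44 and 8.08 under 7378K light, where 7378K 1 was the only other array past the filter value. For both of these genes the first and second arrays spread over more than 4 log2 units, mostly below the filter value.

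Crybb1, a basic β-crystallin of lens fibre cells, was the member below the filter on its mean and was not tested. Its values were 2.18, 2.45 and 13.16 in the controls, 5.67, 3.03 and 9.52 under 2954K light and 2.34, 2.00 and 6.21 under 7378K light. Crybb2, which lens fibres make in large amounts after birth, read 7.69, 6.58 and 14.75 in the controls. It read 3.98, 3.84 and 12.63 under 2954K light and 3.71, 3.08 and 9.99 under 7378K light. Among the first and second arrays Crybb2 was above the filter value in both controls and below it in all 4 LED arrays. Crybb3 read 6.86, 6.62 and 11.91 in the controls, 6.23, 6.74 and 9.17 under 2954K light and 4.12, 5.81 and 8.01 under 7378K light. Besides Cryab it was the member with most first and second arrays past the filter value, 4 of 6, though its highest there was 6.86.

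Crygs, the γS-crystallin, read 6.46, 2.93 and 14.59 in the controls, 2.36, 5.05 and 12.07 under 2954K light and 1.06, 1.86 and 9.89 under 7378K light. Only control 1 of its first and second arrays passed the filter value. Grifin, which resembles galectins and has lost their sugar binding, read 6.20, 6.26 and 11.94 in the controls, 2.59, 5.34 and 7.91 under 2954K light and 4.93, 3.29 and 6.38 under 7378K light. Its value in 7378K 3 was only 0.12 above its highest first or second array, so that Grifin set this array apart least.

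**Figure D1:**
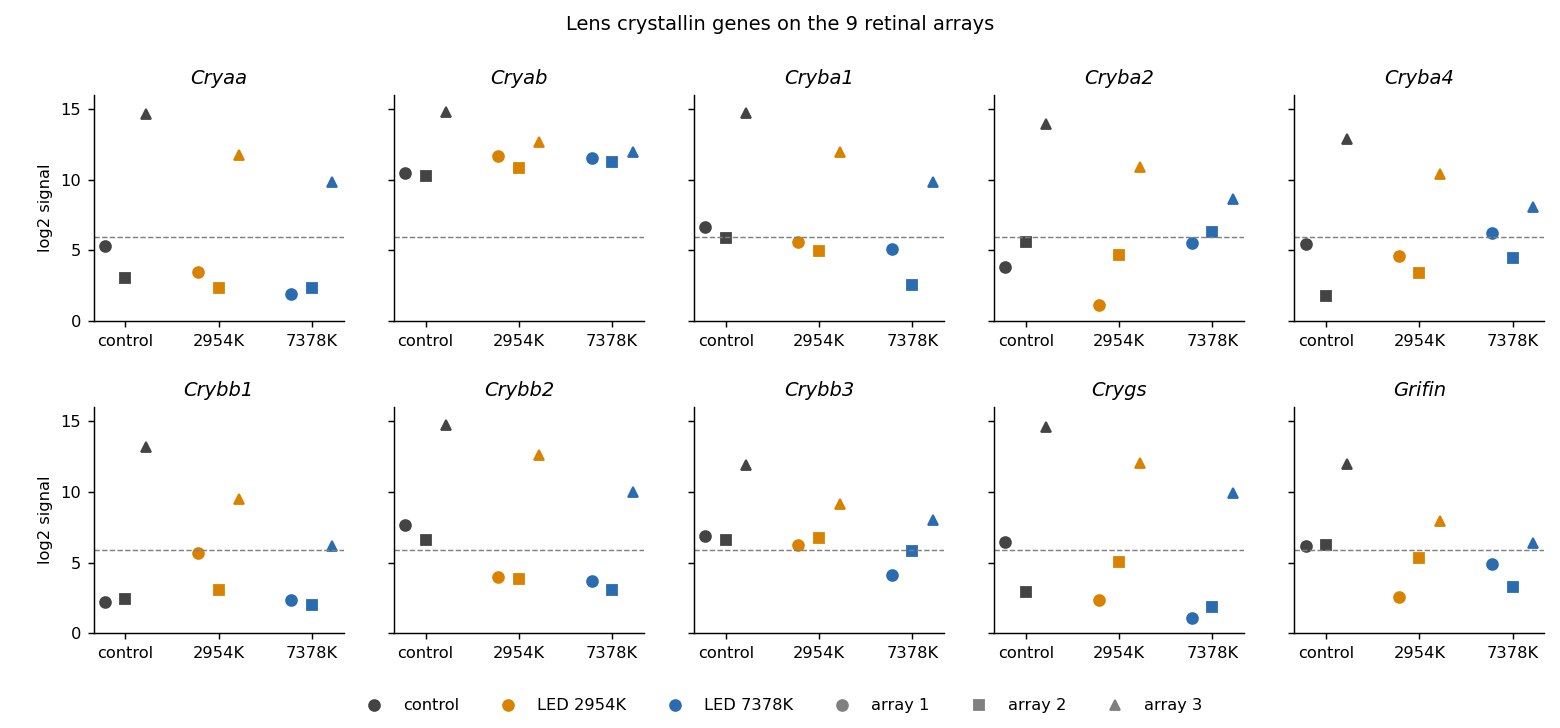
Log2 signal (vertical axis) of the main probe set of each of the 10 crystallin genes on the 9 arrays, by group (horizontal axis and colour) and array number (marker shape); the dashed line is the filter value of 5.91. The third array (triangle) is the highest of its group in every panel, and only Cryab lies above the line on all 9 arrays.

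Read array by array, all 10 crystallins were at or above the filter value in control 3, 2954K 3 and 7378K 3. The count was 6 of 10 in control 1, namely Cryab, Cryba1, Crybb2, Crybb3, Crygs and Grifin. It was 4 in control 2, namely Cryab, Crybb2, Crybb3 and Grifin, and 2 in each first and second LED array. One of these 2 was always Cryab. The other was Crybb3 in both 2954K arrays, Cryba4 in 7378K 1 and Cryba2 in 7378K 2. Of the 10 genes, 9 passed the filter on the mean of all arrays, and 2, Cryab at 11.00 and Crybb3 at 6.06, would have passed on the mean of the 6 first and second arrays. The remaining 7 tested crystallins passed through the third arrays.

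Promoter sequences are shown as background. Lens fibre cells switch on crystallin genes through Maf-family transcription factors, whose half-site reads TGCTGA. A link between this half-site and the order of the arrays was not tested. The sequences are the 250 bases before the start of the gene from RefSeq, on genome build GRCm38.p6, for 4 members of the α-, β- and γ-crystallins, written 5′ to 3′ on the strand of the gene. Capitals mark TGCTGA, or TCAGCA where the half-site lies on the other strand.

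Cryaa, chr17:31677681-31677930, plus strand: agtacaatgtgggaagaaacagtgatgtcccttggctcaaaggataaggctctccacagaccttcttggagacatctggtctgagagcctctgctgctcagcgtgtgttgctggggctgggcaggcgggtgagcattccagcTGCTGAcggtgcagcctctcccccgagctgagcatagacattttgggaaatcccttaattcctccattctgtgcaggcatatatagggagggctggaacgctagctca

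Cryba1, chr11:77725294-77725543, minus strand: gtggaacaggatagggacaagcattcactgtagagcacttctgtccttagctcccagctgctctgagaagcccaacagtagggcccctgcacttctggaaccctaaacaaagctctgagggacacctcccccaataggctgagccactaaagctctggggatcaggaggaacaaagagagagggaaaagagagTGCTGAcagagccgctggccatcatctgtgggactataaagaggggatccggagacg

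Crybb1, chr5:112255570-112255819, plus strand: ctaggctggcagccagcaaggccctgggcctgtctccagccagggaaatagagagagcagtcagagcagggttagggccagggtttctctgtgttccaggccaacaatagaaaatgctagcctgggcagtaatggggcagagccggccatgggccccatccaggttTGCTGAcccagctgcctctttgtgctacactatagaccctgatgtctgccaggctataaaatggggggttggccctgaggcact

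Crygs, chr16:22811411-22811660, minus strand: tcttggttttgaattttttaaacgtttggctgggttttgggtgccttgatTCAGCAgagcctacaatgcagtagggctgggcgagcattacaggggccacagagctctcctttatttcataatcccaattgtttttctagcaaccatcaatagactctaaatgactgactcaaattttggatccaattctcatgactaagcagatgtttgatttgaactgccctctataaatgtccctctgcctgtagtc

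Promoters of 9 of the 10 genes were matched by symbol, all but that of Cryab. TGCTGA, searched on both strands, was found in 7 of the 9, against 5282 of 32851 promoters of the same length (16.1%). Counted from the gene start to the first base of the match, it lay at -108 in Cryaa, -57 in Cryba1 and -84 in Crybb1. In Crygs it lay at -200 on the other strand. Cryba4 held 3 matches, at -182, -135 and -77, and Cryba2 and Crybb3 held 1 each, at -149 and -67 on the other strand. Crybb2 and Grifin had no match in this window, and the promoters printed above were all among those with a match. The letters TATAAA, searched likewise, were found in 3 of the 9, namely Cryba1, Crybb1 and Crygs, against 12.4% of all promoters, and the heat shock motif GAANNTTC in 0 of the 9, against 6.69%. Matches were counted for each motif by itself, whether or not they shared bases with another. On chromosome 5 lay 5 of the 9 genes, of which Cryba4 and Crybb1 neighbour each other, as do Crybb2 and Crybb3. A match is a run of letters and not a measured site.

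The third arrays stood in the same order for all 10 crystallins. Control 3 lay 2.12 to 4.03 above 2954K 3, with a median of 2.73 over the 10 genes. It lay 2.83 to 6.95 above 7378K 3, with a median of 4.82. The smallest of these differences belonged to Crybb2 for 2954K 3 and to Cryab for 7378K 3, and the largest to Grifin and Crybb1. The order of control 3, 2954K 3, 7378K 3 and then all other arrays held for 10 of 10 crystallins, those with and without TGCTGA alike, and for 64 of the 12761 genes tested (0.502%). The third array was above both other arrays in all 3 groups for 10 of 10 crystallins and 525 genes (4.11%). Control 3 was the highest array for 10 of 10 crystallins and 1640 genes (12.9%). The pattern was known before these counts were made, so they describe it and do not test it.

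Against the mean of the first and second arrays of its own group, the third control was higher by 4.44 for Cryab and by 5.17 to 10.84 for the other 9 crystallins. The same gap was 1.42 for Cryab and 2.68 to 8.87 for the others in the 2954K group. The 7378K group gave 0.58 for Cryab and 2.27 to 8.44 for the others. On the log2 scale Cryab therefore had the smallest gap in each group. On the linear scale it did not stand apart. The signal of the third array minus the mean of the other arrays of its group was taken as the excess, and the excess of an LED array was set against that of control 3. For Cryab it came to 14.4% in 2954K 3 and 4.82% in 7378K 3. Cryaa gave 13.4% and 3.43%, Cryba1 15.0% and 3.37%, and Crygs 17.4% and 3.85%. Over all 10 crystallins the share was 5.63% to 23.0% in 2954K 3, with a median of 13.9%, and 0.759% to 5.89% in 7378K 3, with a median of 3.40%. Grifin and Crybb1 lay lowest in 2954K 3, at 5.63% and 7.73%. The highest signal on any array lay between 14.96 and 15.42, so that values of control 3 above 14, as for Cryaa, Cryab, Cryba1, Crybb2 and Crygs, were near the top of the range, where differences can be compressed.

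**Figure D2:**
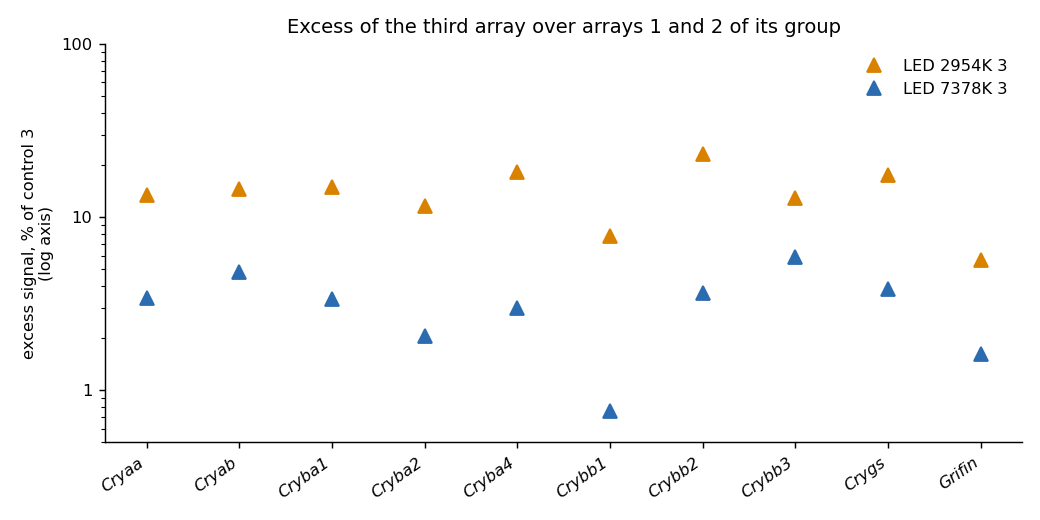
Linear excess signal of 2954K 3 (orange) and 7378K 3 (blue) over the mean of arrays 1 and 2 of their group, as a percentage of the same excess in control 3 (vertical log axis), for the 10 crystallin genes (horizontal axis). The orange points run from 5.63% to 23.0% and the blue points from 0.759% to 5.89%, with Cryab within both ranges.

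Lens fibre genes that are no crystallins were read beside these values. Of 10 such markers 7 were measured, and their summed signal in log2 was 7.55, 7.23 and 12.69 in the controls. The sum was 6.96, 7.82 and 9.71 under 2954K light, and the 7378K arrays had 7.98, 7.48 and 8.04. Control 3 and 2954K 3 stood clear of the rest, while 7378K 3 lay only 0.06 above 7378K 1. Mip, the water channel of fibre cells, read 11.29 in control 3 and 7.41 in 2954K 3, and 4.81 or less on the other 7 arrays, 7378K 3 included. Lim2, a fibre membrane protein, read 10.29, 7.22 and 5.58 in the third arrays and 4.51 to 6.13 in the others. Bfsp2, of the beaded filament of fibre cells, read 9.73, 7.26 and 6.79 there and 4.91 to 6.66 in the others. Of the 7 markers 5, 4 and 1 were at or above the filter value in the third arrays and 0 to 2 in the 6 others. On 7378K 3 the crystallins were thus raised while most of these markers were not bright. The median crystallin excess there was 3.40% of that in control 3. Taken likewise, the excess was 0.15% for Mip, -0.25% for Lim2, -1.96% for Bfsp1, 5.28% for Bfsp2 and 0.84% for Gja3. Birc7 and Dnase2b, below the filter value on all 9 arrays, gave 42.5% and 7.67%. In a wider list of 9 lens fibre and membrane genes, 8 were highest in control 3. The full crystallin order held for 2 of the 9, Bfsp2 and Gja3, against 0.502% of all genes tested. Gja3 read 10.28, 5.74 and 5.15 in control 3, 2954K 3 and 7378K 3, and 4.88 or less elsewhere. How much lens tissue each pool held was not measured, and its part in the crystallin values was not tested.

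Genes of other tissues around the retina were also raised on some of the third arrays, without the full crystallin order. Of 21 pigment epithelium and melanocyte genes 0 showed it, although the third array was the highest in all 3 groups for 8 of them. The summed signal of 11 pigment cell markers was 14.06, 13.58 and 15.32 in the controls. The 2954K arrays had 15.44, 15.01 and 15.11 and the 7378K arrays 14.54, 14.19 and 15.17, so that 2954K 1 was the highest. Of 15 extraocular muscle genes 13 were highest in control 3 (12.9% of all genes), and the summed signal of 5 muscle markers was 10.69 there and 8.50 to 9.11 on the other arrays. The sum of 3 ciliary body and iris markers was 9.24 in control 3 and 9.41 in 2954K 3, and 6.66 to 7.78 on the others, 7378K 3 included. In control 3 and 2954K 3, Optc read 8.48 and 7.80, Myh11 6.70 and 8.61, and Des 7.18 and 6.04. The markers were thus not raised together. Of 12 ciliary body and iris genes 3 were highest in control 3 (12.9% of all genes). The corneal enzyme gene Aldh3a1 was at 10.82 in control 3 and at 5.87 or less elsewhere. Other corneal markers did not stand out there. Krt12 read 5.75 in control 3 and 7.89 in 2954K 1, Krt5 read 6.79 in control 3 and 6.90 in 7378K 2, and Kera was dim, at 3.19 or less. Of 14 cornea and conjunctiva genes 3 were highest in control 3 (12.9% of all genes). None of the 15 muscle, 12 ciliary body and iris and 14 cornea and conjunctiva genes measured showed the full crystallin order, and the part of these tissues in the crystallin values was not tested. Rod markers (4 measured) summed to 16.13 to 16.67 and Müller glia markers (5) to 14.94 to 15.23 on the 9 arrays, with none of the third arrays apart, so rod and glial markers of retina were bright in each pool. The arrays of a group correlated at 0.953 to 0.980 across the genes tested and those of different groups at 0.941 to 0.974.

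Other members of the β- and γ-crystallin family did not all divide in the same way. Among 8 relatives measured, 2 (Crygb and Crygd) showed the full order of the third arrays. Crygb read 13.17, 11.98 and 8.92 on the third arrays and 3.75 to 6.77 on the others. Crygd read 11.97, 10.56 and 7.43 there and 0.94 to 5.19 on the others. The γ-crystallin genes of this cluster are close copies of each other, so their probe sets may read more than 1 gene. Their excess in 2954K 3, at 43.8% and 37.4% of that in control 3, was above the range of the 10 crystallins, and in 7378K 3, at 5.08% and 4.20%, within it. Cryga, Crygf and Crygn were highest in control 3, at 6.82, 8.52 and 8.86, but did not follow the order on the LED arrays. Cryga read 2.83 in 2954K 3 and 5.43 in 2954K 2. Crygf read 5.73 to 6.47 on the 6 LED arrays, and Crygn read 3.54 in 7378K 3 and 3.88 in 2954K 2. Crybg1 and Crybg2 were dim, at 5.12 or less on all arrays, and Crybg3, a large relative made outside the lens, read 7.97 to 8.75. Among 3 tested relatives 0 were called in either LED comparison.

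Crybb2 was taken as the reference for likeness over the arrays. Over the 9 arrays Pearson's r of its log2 signal was 0.97 with Cryaa and with Cryba1, 0.96 with Crygs, 0.92 with Crybb3, 0.90 with Grifin, 0.85 with Cryba2 and with Cryba4, and 0.75 with Cryab. Of the 12752 other genes the 10 most like it were Crygb (0.97), Zic5 (0.96), Hspb1 (0.94), Sgpl1 (0.93), Reck (0.92), Mllt10 (0.92), Guk1, Nt5dc2, Rassf3 and Pak7 (0.91 each). The arrays fell into 3 bright and 6 dim ones for most crystallins, so these values are a description of that split and carry no test. Among the 45 pairs of the 10 crystallins, r lay between 0.73 and 0.97 over 9 arrays (median 0.87). Over the 6 first and second arrays alone it lay between -0.89 and 0.82, with a median of -0.02. On these 6 arrays r with Crybb2 was 0.82 for Cryaa, 0.77 for Cryba1, 0.74 for Grifin, 0.65 for Crygs and 0.53 for Crybb3, against -0.10 for Cryba2, -0.20 for Cryba4 and -0.79 for Cryab.

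The comparison of each light group with the controls asked whether crystallin transcripts in the retina differed with LED exposure. With all 9 arrays in limma, a linear model over 12761 genes with Benjamini-Hochberg adjustment, 0 of the 9 crystallins tested were called under 2954K light at an adjusted p under 0.05, where 1.22% of all genes were. None of the 9 reached an unadjusted p under 0.05, and the adjusted p ran from 0.456 to 0.967. All 9 had a lower mean than in the controls, by a median of -1.56 (range -2.86 to -0.13), against a median of 0.01 over all genes tested. Under 7378K light 0 of 9 were called, where 3.52% of all genes were, and 0 had an unadjusted p under 0.05 (adjusted p 0.232 to 0.933). All 9 again had a lower mean, by a median of -2.99 (range -4.08 to -0.26), against 0.04 over all genes. Both comparisons use the same controls, and control 3 held the highest value of each crystallin. The standard errors of the 9 differences were 0.92 to 3.10, against a median of 0.162 over all genes, and no crystallin had groups without overlap. Among all genes the groups did not overlap for 7.68% (higher) and 7.53% (lower) under 2954K light. The shares were 21.6% and 14.8% for 7378K light against control, and 5.27% and 3.28% between the light groups.

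Grifin came nearest to the threshold, with a difference of -2.85 ± 1.54 (SE, 95% confidence interval -6.22 to 0.52) under 2954K light and -3.27 (-6.64 to 0.10) under 7378K light, n = 3 arrays per group in limma. Crybb2 differed by -2.86 (-8.51 to 2.79) and -4.08 (-9.73 to 1.57). The intervals of Crybb2 reach from large falls to more than 2-fold rises, so that a change of this gene could not be measured well in either direction. Between the light groups, 7378K against 2954K, 0 of 9 crystallins were called (0% of all genes), with 0 at an unadjusted p under 0.05 and adjusted p from 0.978 to 0.997. The 7378K mean was the lower one for 7 of 9, by a median of -1.16 over the 9 genes. In a bulk measurement of this kind, fewer cells of a type and less RNA per cell cannot be told apart.

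The same fit was made without the third array of each group, which left 2 arrays per group. The third arrays were known to hold the highest crystallin values when they were left out. Crystallin intervals and p-values of this fit therefore describe the remaining arrays and are no independent test. Under this fit 0 of 9 crystallins were called in any comparison, where 0.705% (2954K), 1.14% (7378K) and 0% (7378K against 2954K) of all genes were. An unadjusted p under 0.05 was reached by 2, 4 and 1 crystallins. Cryab was the one crystallin whose first and second arrays were all higher in both light groups than in both controls, which also held for 20.2% of all genes under 2954K light and 35.8% under 7378K light. Lower without overlap were Cryba1, Crybb2 and Grifin under 2954K light, where 17.4% of all genes were. Under 7378K light these were joined by Cryaa, Crybb3 and Crygs, where 24.5% of all genes were. All of these lower LED values lay below the filter value of 5.91, and of the 9 genes only Cryab and Crybb3 would pass the filter on these arrays. Between the light groups Cryba2 was higher under 7378K light without overlap (15.7% of all genes), and Cryaa, Crybb2, Crybb3 and Crygs were lower (11.4% of all genes).

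**Figure D3:**
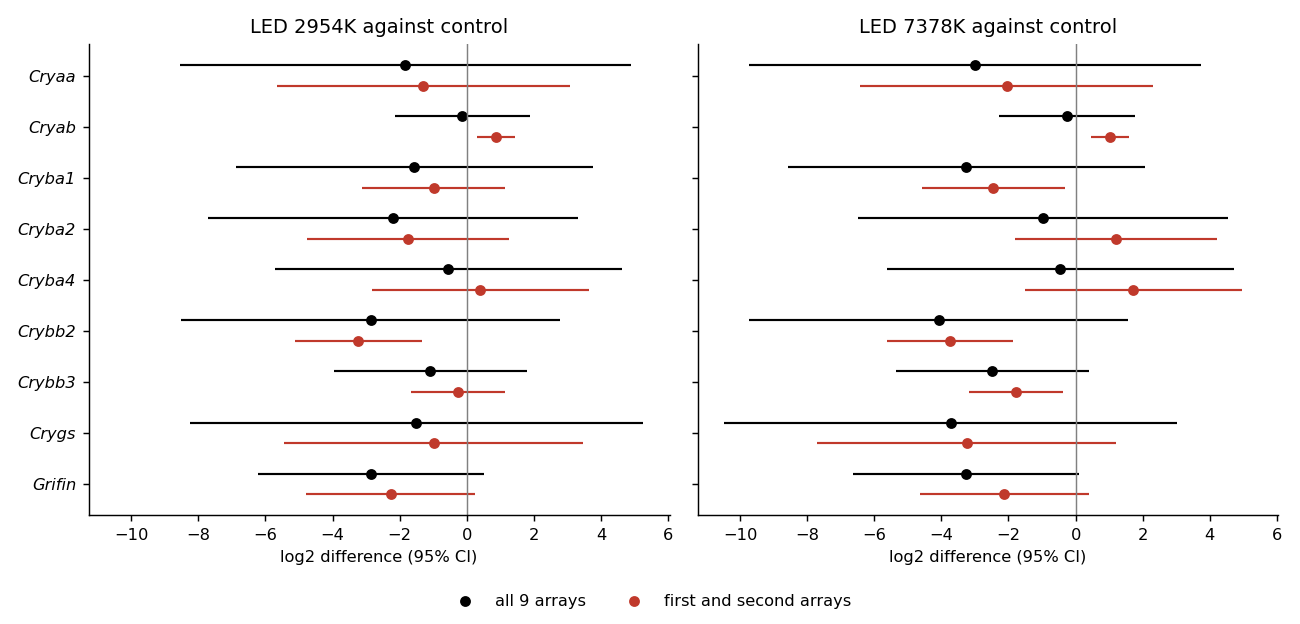
Log2 difference of each tested crystallin from the control group (horizontal axis, points) with 95% confidence intervals (lines), with all 9 arrays (black) and with the first and second arrays alone (red), for both LED groups. The black intervals all include 0, and the red point of Cryab lies to the right of 0 in both panels while its black point lies to the left.

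For Cryab the direction depended on the third arrays. With all arrays the difference was -0.13 under 2954K light (95% confidence interval -2.15 to 1.88, adjusted p = 0.967 in limma) and -0.26 under 7378K light (-2.28 to 1.76, adjusted p = 0.897). With the first and second arrays alone it was 0.87 ± 0.25 (SE, 0.30 to 1.45, adjusted p = 0.303 in limma) and 1.03 (0.45 to 1.60, adjusted p = 0.130). Leaving out control 3 alone gave 1.35 (adjusted p = 0.149 in limma) and 1.22 (adjusted p = 0.123). On the first and second arrays the interval for the main probe set by itself leaves out 0, and the p adjusted over all genes misses the threshold. Since the arrays left out were known to be the highest for Cryab, neither value tests a change of this gene. The second probe set was read on these arrays in a fit over all probe sets. It gave 0.37 (-0.006 to 0.75, adjusted p = 0.701 in limma) under 2954K light, where the interval includes 0. Under 7378K light it gave 0.66 (0.28 to 1.03, adjusted p = 0.241 in limma). Between the light groups Cryab differed by 0.15 on these arrays (-0.43 to 0.73).

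Other measures were read over the same arrays. Of the marker sums given here, only that of the pigment cells was above controls 1 and 2 on every array of both light groups, as Cryab was. The summed pigment cell markers were 14.06 and 13.58 in controls 1 and 2. They were 15.44 and 15.01 under 2954K light and 14.54 and 14.19 under 7378K light, also without overlap. This linear sum leaned on its brightest gene, Ttr, at 13.70 and 13.18 in those controls and 14.30 and 13.88 under 7378K light. Under 7378K light Dct and the dim Best1 were likewise higher without overlap. The other markers overlapped with the controls there, as Rpe65 did at 9.78 and 9.85 against 10.34 and 9.73. The 3′ minus 5′ difference of the Gapdh and beta-actin control probe sets, which grows as 5′ ends of the RNA are lost, was 0.33 and 0.20 in controls 1 and 2. The 2954K arrays had 2.78 and 0.21 and the 7378K arrays 1.80 and 1.67, so that 2954K 2 lay between the controls. The summed lens fibre markers on these 6 arrays ran from 6.96 to 7.98, highest in 7378K 1. The sum of 5 Müller glia markers ran from 15.01 to 15.22. In the wider Müller glia list 3 of 13 genes were called higher in each LED group on these arrays. They were Crym, the intermediate filament gene Vim, by 0.87 (adjusted p = 0.0297 in limma) and 1.28 (adjusted p = 0.003), and the chaperone gene Clu, by 1.05 and 1.26. Of 16 gliosis and stress signalling genes 11 (2954K) and 13 (7378K) were called higher. Pigment cell genes were called higher under 2954K light, 5 of 20 (Dct, Rdh5, Slc26a7, Rgr and Rpe65), and 0 of 20 under 7378K light. The part of each of these in the Cryab values was not tested.

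**Figure D4:**
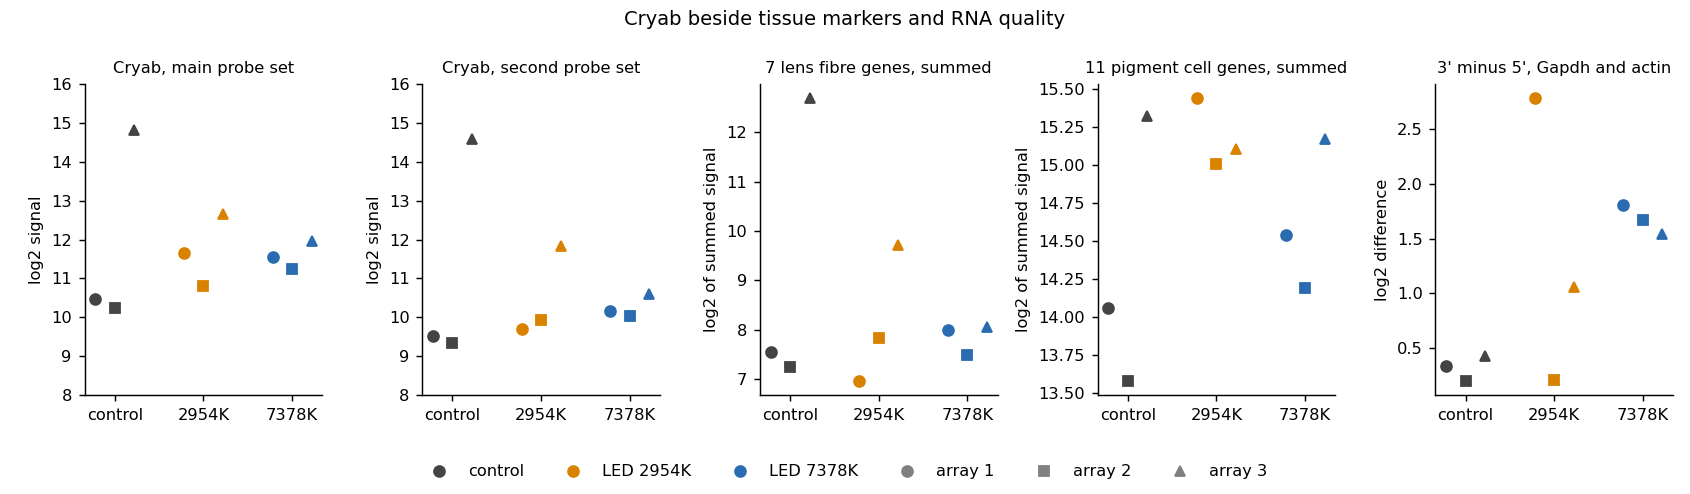
Cryab on its main and second probe set (log2 signal), the log2 of the summed signal of 7 lens fibre and 11 pigment cell genes, and the 3′ minus 5′ log2 difference of Gapdh and beta-actin (vertical axes) on the 9 arrays, by group and array number. Circles and squares show Cryab higher in the LED groups than in controls 1 and 2, together with the pigment cell sum, whose brightest gene is Ttr. Triangles show the third arrays.

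Crybb2 went the other way on the first and second arrays, from a control mean of 7.14 to 3.91 under 2954K light and 3.39 under 7378K light. Its mean over these 6 arrays, 4.81, lay below the filter value, as did all 4 LED values, so the size of this difference has no known error. It was not called in either comparison (adjusted p = 0.234 and 0.0944 in limma). The same holds for Cryba1, with a mean of 5.11 over these arrays (adjusted p = 0.737 and 0.280 in limma). Crybb3, with a mean of 6.06, differed by -0.26 (adjusted p = 0.906 in limma) and -1.78 (adjusted p = 0.252), where both 7378K values lay below the filter value. Cryba4 had a higher mean in both light groups on these arrays, by 0.41 and 1.72, and Cryba2 in the 7378K group, by 1.22, with intervals that include 0.

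Gene lists around the crystallins were counted in the same fit with all arrays. A list of small heat shock proteins, the family of Cryaa and Cryab, had 5 genes tested. Among them Hspb11 bears the name but encodes an intraflagellar transport protein outside this family. Of the 5 genes 0 were called under 2954K light. Under 7378K light 1 rose, Hspb6, from 10.38 to 10.90, a difference of 0.53 ± 0.12 (SE, n = 3, adjusted p = 0.0328 in limma). This call ended without controls 1 or 2, without any 7378K array and without the third arrays, with adjusted p up to 0.142. It also ended with that 3′ minus 5′ difference in the model (adjusted p = 0.177 in limma). The difference itself was about as large in these fits, 0.46 to 0.60. Hspb1 was not called and was the gene of this list with the full order of the third arrays, at 10.47, 9.57 and 9.33 there against 8.57 to 9.09 on the others. Hspb2, the neighbour of Cryab in the genome, read 6.92 ± 0.92 (SD, n = 3) in the controls, 5.87 ± 0.48 under 2954K light and 6.37 ± 0.53 under 7378K light. It was not called.

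A list of 7 genes held enzyme crystallins and their relatives, a name that comes from the use of such enzymes in the lenses of some animals. It also held Cry1 and Cry2, the cryptochromes of the circadian clock, which are not crystallins. Of the 7 genes 2 rose under each light. Crym, which binds thyroid hormone and was also in the Müller glia list, rose from 10.56 ± 0.24 (SD, n = 3) to 11.78 ± 0.11 and 12.01 ± 0.14, by 1.22 (adjusted p = 0.000284 in limma) and 1.45 (adjusted p = 5.06e-05). Its groups did not overlap, and control 3 was its lowest array. Cryzl2 rose from 7.16 by 1.54 (adjusted p = 0.0256 in limma) and 1.72 (adjusted p = 0.00774). Its 2954K call ended without control 1, control 2, 2954K 1, 2954K 3 or 7378K 1 (adjusted p up to 0.0779) and its 7378K call without 7378K 2 (adjusted p = 0.0515). Both of its calls ended with the 3′ minus 5′ difference in the model (adjusted p = 0.076 and 0.0578 in limma), where the differences were 1.65 and 1.87. Of the 7 genes of this list 0 showed the order of the third arrays.

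Among 4 tested lens fibre and membrane genes Caprin2, an RNA-binding protein also made outside the lens, rose by 1.16 (adjusted p = 0.000124 in limma) and 1.46 (adjusted p = 1.28e-05). It was bright on all 9 arrays, and Lim2, Bfsp2 and Tdrd7 were not called. Of 7 lens transcription factor genes tested, several of which also act in the retina, 0 were called under 2954K light and 1 under 7378K light. This was Sox2, higher by 0.65 (adjusted p = 0.00821 in limma), which was not called without 7378K 1, 7378K 3 or the third arrays (adjusted p up to 0.139), with differences of 0.62, 0.59 and 0.58. Of 6 galectins and 20 pigment cell genes tested 0 were called in either comparison, against 5 of the 20 pigment cell genes under 2954K light without the third arrays. With all 9 arrays 11 (2954K) and 14 (7378K) of 16 genes of gliosis and stress signalling were called higher.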

How the data were processed

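Affymetrix mouse expression arrays were measured, 1 per pool and 3 per group. MAS5 and affy are named, with no version, role or order, in the submitters' processing notes. The authors deposited them on a log2 scale: 2 raised to the value has a 2% trimmed mean of 500 on every array, so arrays had been scaled to a common mean. The number of arrays limits the precision; detection calls were not used. Nothing in the labels says whether pools shared cages or days, so p-values measure the spread between these pools.

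The deposited annotation of the platform gave 1 symbol to 34945 of 45101 probe sets, several to 932 and none to 9160, and 64 were controls. Each gene was represented by its probe set with the highest mean. Genes with a mean at or above the 40th percentile of all probe sets (5.91) were tested, 12761 of 18193. limma 3.58.1 in R 4.3.3 (1 mean per group, eBayes with an intensity trend, contrasts between groups) was applied with Benjamini-Hochberg adjustment and a threshold of 0.05, and tested on simulated data. Reading used data.table (1.17.8), and pandas 2.3.3, numpy 2.4.6 and matplotlib 3.10.9 under python 3.11.15 made summaries and figures.

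Alternatives were each array left out, the third arrays left out together, the replicate number as a block, no filter, averaging all probe sets of a gene, quantile normalization, values floored at the filter value, and the 3′ minus 5′ difference or the lens fibre markers as a covariate. A fit over all probe sets was added after the data were seen. The members, the lists and the alternatives were chosen with earlier results of these data known. Named are all 10 members, genes of a list called in a contrast (at most 4 by p), lens fibre genes above the filter and the 10 genes most like Crybb2. Gene lists for the ciliary body and iris, cornea and conjunctiva and extraocular muscle had 8, 4 and 7 genes tested, of which 0 were called in either LED comparison. Of 13 genes each, rods had 0 and 4 lower and Müller glia 2 and 3 higher under 2954K and 7378K light. Promoters came from RefSeq (GRCm38.p6).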

Additional observations from a re-analysis of the deposited data

How the results depend on the processing

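Of 716 values under alternatives, 631 kept their direction and their side of the threshold or moved less than the spread, 58 changed sign, 18 calls were lost, 7 were gained and 2 counts moved. Crystallin calls stayed at 0 of 9 (0 of 10 with no filter) in every alternative except the replicate block. With the replicate number as a block, 1 crystallin was called under 2954K light (Crybb2, adjusted p = 0.0039 in limma) and 6 under 7378K light (Cryaa, Cryba1, Crybb2, Crybb3, Crygs and Grifin, lowest adjusted p = 0.000233), with 163 and 638 of all genes called. The labels tie the numbers to no animal, litter or day. Deviations from the group mean correlated at 0.06 to 0.33 between arrays of the same number and at -0.27 to 0.09 between arrays of different numbers. The third arrays correlated at 0.33, 0.21 and 0.15 with each other. For 4 of the 9 same-number pairs r was under 0.1, and not every array correlated best with its own number. As the labels name no pairs, the numbers were not taken as pairs in the main fit. The count of all genes called was 156 (2954K) and 449 (7378K) with all arrays. It was 83 and 256 with the mean of probe sets, 102 and 136 with the 3′ minus 5′ covariate, 246 and 474 with the lens covariate, and 90 and 146 without the third arrays. Leaving out 1 array gave 79 to 897 and 144 to 1517, and 0 to 29 between the light groups.

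Signs changed for differences that were not called. With lens fibre markers as a covariate, 2954K against control gave 0.19 for Cryaa, 0.53 for Cryab, 0.022 for Cryba1, 1.11 for Cryba4 and 0.47 for Crygs. In 7378K against control it gave 0.67 for Cryab, 1.48 for Cryba2 and 1.86 for Cryba4, and 0.14 for Cryab between the light groups. With the 3′ minus 5′ covariate, Crygs was at 0.19 (2954K) and Cryba2 at 1.51 (7378K). Without the third arrays, Cryab was at 0.87 and 1.03 and Cryba4 at 0.41 and 1.72 for the LED groups, Cryba2 at 1.22 under 7378K light, and Cryab at 0.15 and Grifin at 0.14 between the light groups. The second Cryab probe set was then at 0.37, 0.66 and 0.29. With values floored at the filter value, 7378K against 2954K was -0.63 for Cryba2 and -0.68 for Cryba4. The causes were not tested.

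Leaving out 1 array at a time, 2954K against control ran from -4.78 to 1.66 for Cryaa, -0.93 to 1.35 for Cryab, -3.79 to 1.25 for Cryba1, -4.84 to 0.90 for Cryba2, -3.01 to 2.54 for Cryba4, -2.01 to 0.64 for Crybb3 and -4.29 to 1.80 for Crygs. For 7378K against control it ran from -5.55 to 0.50 for Cryaa, -1.06 to 1.22 for Cryab, -2.96 to 2.12 for Cryba2 and -2.92 to 2.64 for Cryba4. Between the light groups it ran from -3.72 to 1.79 for Cryaa, -0.58 to 0.35 for Cryab, -3.70 to 0.54 for Cryba1, -0.98 to 3.87 for Cryba2, -1.26 to 2.23 for Cryba4, -3.42 to 1.69 for Crybb2, -5.04 to 0.56 for Crygs and -1.76 to 0.90 for Grifin.

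Without detection calls, values under 5.91 have no known error, and their order within the dim range should be read with care. With 2 or 3 arrays per group, differences of the size of the intervals given could not be seen.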
